A study of Homo sapiens with 47 samples.

Results

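The subject here is a set of 10 genes that the study listed among its candidate surface markers for circulating tumor cells (CTCs), namely AHNAK2, ODR4, TRIML2, ITPRID2, ERBIN, AFDN, NIBAN2, DENND10, JPT2 and DDAH1. They were taken by name from the study's candidate list, and all 10 were found among the 25739 genes measured. The question was how far these markers cover the CTCs jointly: in how many cells each RNA was found, in how many cells a pair was found together, and which combinations left no CTC uncovered. The study chose its candidates partly by their mean and their share of positive cells in these same CTCs, so the high levels and shares given here describe the selection and are not independent evidence for it.

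CTCs are tumor cells that have entered the blood, where they are rare among blood cells. Surface proteins are used to find them alive. EpCAM is often low or missing on tumor cells with a mesenchymal state, and HER2 is low or missing in triple-negative tumors, while EGFR may be present on mesenchymal cells. A combination of markers, often called a cocktail, counts a cell as found when any 1 of its members is present, so its value depends on whether the members miss different cells.

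The CTCs came from MDA-MB-231-LM2 (LM2), an established human triple-negative breast cancer line that carried GFP and was grown in the mammary fat pad of immunodeficient NSG mice, from which it spread spontaneously. CTCs were enriched from mouse blood by size, picked singly with a needle for their fluorescence and sequenced with SMARTseq2, which amplifies full-length cDNA and has no molecular identifiers. The values cover 37 CTCs of 5 mice (2 of mouse 5541, 4 of 5542, 10 of 5545, 17 of 5546 and 4 of 5549) and 6 LM2 cells picked from culture without a mouse, which were taken as 1 culture. A further 4 CTC libraries in the labels have no values here because the submitters left them out. In mouse 5546, 9 library names hold a c and 8 hold an s. What c and s stand for is not given, and the s libraries stood apart in several results.

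Depth was 469614 to 2041333 reads on genes per CTC and 776949 to 1186197 per cultured cell, and 2313 to 12299 genes were detected per CTC against 7369 to 13679 per cultured cell. All 37 CTCs expressed the mesenchymal markers VIM and CD44 and the keratins KRT8 and KRT18. Among other epithelial genes, KRT19 was found in 31 CTCs, CLDN7 in 25, EPCAM and CLDN4 in 8 each, CLDN3 in 3 and CDH1 in 1. Among other mesenchymal genes, SPARC was found in 35 CTCs, ZEB1 in 33, FN1 in 32, SNAI2 in 17 and CDH2 in 1. Hemoglobin HBB was found in 35 of 37 CTCs and in 0 of 6 cultured cells. With 6 cells of 1 culture, a share above 0 in culture remains possible. Among leukocyte genes, S100A9 was found in 30 CTCs, LYZ in 12, PTPRC and CD14 in 11 each and CSF3R in 10. ITGAM was found in 5, MPO in 2, and MS4A1 and FCGR3A in 1 each. The CTCs came from mouse blood, and reads were aligned to the human genome alone. Whether the reads of such blood genes came from mouse cells was not tested. Levels are given as normalized read counts (value), for which the reads of each cell were scaled by its size factor, and a marker was called detected at a value above 0. The higher level of 8 corresponds to 4 to 25 reads, depending on the cell.

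All 10 markers were found in most CTCs, and none was found in all of them. ITPRID2 and NIBAN2 were detected in the most CTCs, 35 of 37 each (94.6%, exact 95% interval 81.8 to 99.3), and DDAH1 in the fewest, 23 of 37 (62.2%, 44.8 to 77.5). With the 5 mice weighted equally the top changed, to ERBIN at 95.6%, NIBAN2 at 93.8% and ITPRID2 at 88%, while DDAH1 stayed lowest at 55.3%. Between them lay ERBIN with 34, DENND10 with 30, AHNAK2 with 29, AFDN with 28, and ODR4, TRIML2 and JPT2 with 27 CTCs each. At a value of at least 8 the order changed, since ITPRID2 then led with 29 CTCs while NIBAN2 was at 20. NIBAN2 was thus present at a low level in 15 CTCs, more than any other of the 10. Among the 7019 genes with a CTC mean of at least 8, 17.2% were detected in as many CTCs as ITPRID2 or more. For DDAH1 this share was 73.4%, so the markers lay within the range of expressed genes and did not span it. Intervals speak for counting error alone, since PCR copies of a molecule could not be told from each other, and several CTCs shared a mouse.

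**Figure D1:**
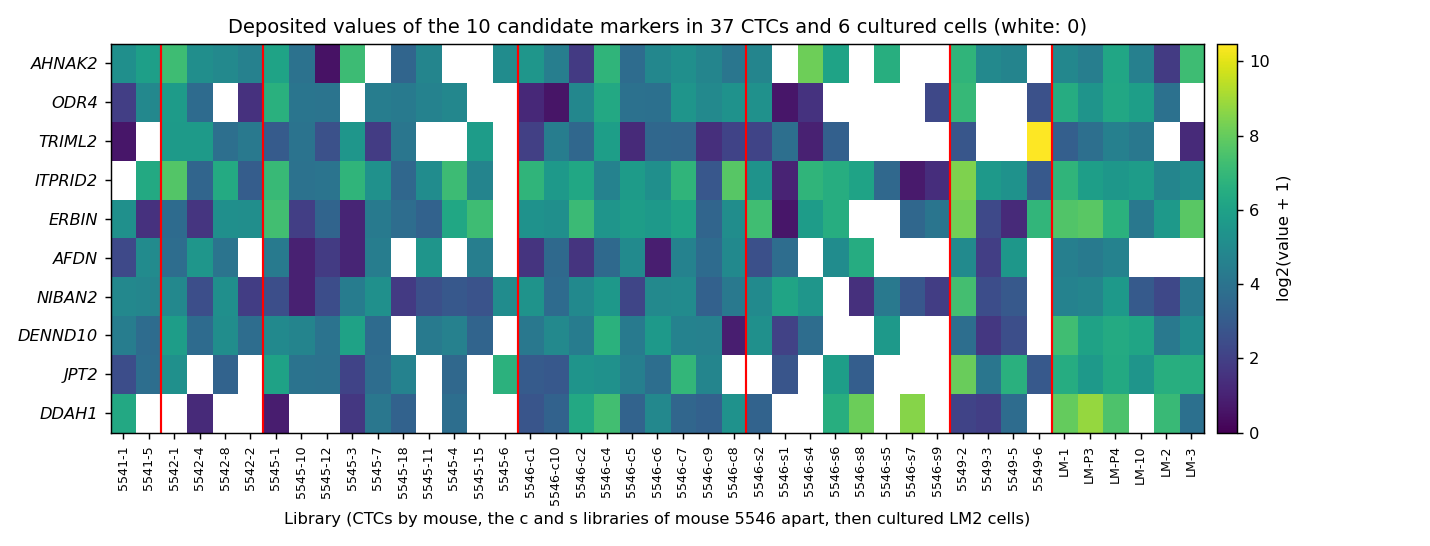
Value of each of the 10 markers (rows) in each CTC and cultured cell (columns), as log2(value + 1) from dark to bright, with 0 in white. Red lines part the mice, the c and s libraries of mouse 5546 and the culture. White squares gather in the s libraries, in 5545-6 and in 5549-6, and are nearly absent from the c libraries.

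AHNAK2, ODR4 and TRIML2 were taken further as surface markers by the study, together with CAVIN1. The study dropped its other candidates, the rest of the listed markers among them, because they stained blood mononuclear cells of healthy donors. Coverage of CTCs by RNA, as counted here, takes no account of such staining. AHNAK2 (ENSG00000185567, chr14:104937244-104978374, minus strand) encodes a very large scaffold protein related to AHNAK. Its value in CTCs ran from 0 over a median of 26.2 to 288, and in cultured cells from 2.51 over 25.1 to 146. The ranges overlap widely, and the mean of the mouse means (44.7 ± 10.8, SD, n = 5 mice) lay near the culture mean of 48.8. The mouse means of AHNAK2 were close together, from 29.3 to 59.4. All 9 c libraries had AHNAK2 and 4 of the 8 s libraries lacked it, although 1 s library (5546-s4) held the highest value of all CTCs.

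The AHNAK2 transcript is unusual in that 27.1% of its 31-base words occur more than once within it, all of them inside the gene, and 0% occur elsewhere in the genome. The longest exact repeat has 141 bases and lies in exon 7 of 7. Below are 90 bases around the start of this repeat in 2 copies 5940 bases apart, chr14:104953059-104953148 and chr14:104947119-104947208 of GRCh38 on the minus strand, with the bases that differ in capitals. They are shown because reads wholly inside the repeat fit several places, while the authors kept uniquely mapped reads. Such reads would go uncounted, and how many did was not measured.
AHNAK2 copy 1: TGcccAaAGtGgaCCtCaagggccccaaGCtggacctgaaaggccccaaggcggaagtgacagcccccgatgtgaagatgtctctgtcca
AHNAK2 copy 2: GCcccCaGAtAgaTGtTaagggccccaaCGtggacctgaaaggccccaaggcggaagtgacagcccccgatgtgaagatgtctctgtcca

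ODR4 (ENSG00000157181, chr1:186375838-186421378, plus strand) encodes a membrane protein of the endoplasmic reticulum that works with the protease UFSP2. Its value in CTCs ran from 0 over a median of 11.6 to 129, and in cultured cells from 0 over 49.2 to 87.5. The mean of each of the 5 mice (15.6 to 33.4) was below the culture mean of 45.9. On this scale 85.3% of the 9164 genes considered were below culture, so that ODR4, ERBIN, DENND10 and DDAH1, whose mouse means all lay there, shared their side with most genes. TRIML2 (ENSG00000179046, chr4:188091272-188109603, minus strand) encodes a member of the tripartite motif family. Its value ran from 0 over a median of 5.04 to 1415 in CTCs, and from 0 over 10.5 to 22.6 in culture. A single CTC, 5549-6, held 76.9% of all TRIML2 in the CTCs, and the next highest value was 56.6. The mouse means of TRIML2 spread from 0.281 in mouse 5541 to 355 in mouse 5549, the widest spread of the 10 markers in value units.

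ITPRID2, ERBIN, AFDN and NIBAN2 encode proteins that sit beneath the plasma membrane. ITPRID2 (ENSG00000138434, chr2:181891730-181930738, plus strand) holds inositol trisphosphate receptors at actin. With a median of 39.5 (0 to 349) in CTCs and of 49.3 (26.3 to 115) in culture, it had the highest median value of the 10 markers in CTCs. ERBIN (ENSG00000112851, chr5:65883128-66082546, plus strand) binds the receptor ERBB2. Its median was 34.3 (0 to 300.1) in CTCs and 149 (17.2 to 223) in culture, and the means of all 5 mice were below the culture mean of 134. AFDN (ENSG00000130396, chr6:167826893-167972023, plus strand), or afadin, links nectins to actin. Its median was 10.9 (0 to 89.2) in CTCs and 9.50 (0 to 24.2) in culture, where 3 of 6 cells lacked it. NIBAN2 (ENSG00000136830, chr9:127505339-127578989, minus strand) is a phosphoprotein of the cytoplasm and the plasma membrane. It had a median of 11.5 (0 to 160.1) in CTCs and of 21.5 (3.76 to 50) in culture. For AFDN and NIBAN2 the mouse means lay on both sides of the culture mean.

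DENND10, JPT2 and DDAH1 are known for roles inside the cell. DENND10 (ENSG00000119979, chr10:119104086-119137984, plus strand) carries a domain of regulators of Rab proteins and joins a complex of endosomal sorting. Its median was 14.7 (0 to 102) in CTCs and 67.4 (17.6 to 153) in culture, with all 5 mouse means (4.90 to 28.5) below the culture mean of 70.4. JPT2 (ENSG00000206053, chr16:1678256-1702280, plus strand) binds the calcium messenger NAADP. It was found at 43.1 to 92.8 in all 6 cultured cells, and in CTCs at a median of 10.6 (0 to 267). The mean of JPT2 was highest in mouse 5549, and at 97 it was the only one above the culture mean of 73.8. This mean leans on CTC 5549-2, at 267, while the other CTCs of the mouse held 98.5, 16.3 and 6.66. CTC 5549-2 held the highest value of all CTCs for 5 of the 10 markers (ODR4, ITPRID2, ERBIN, NIBAN2 and JPT2).

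DDAH1 (ENSG00000153904, chr1:85318481-85578363, minus strand) degrades methylated arginines that inhibit nitric oxide synthases. Its median was 3.35 (0 to 379) in CTCs and 161 (0 to 452) in culture. Among the mice, DDAH1 was found in 1 of 4 CTCs of mouse 5542, at 1.37, and in 13 of 17 of mouse 5546. The highest values were 379 in 5546-s7 and 280 in 5546-s8, and 4 of the 8 s libraries held none. The mouse means of DDAH1 ran from 0.342 to 64.9, and on the log2 scale their spread (SD 2.32) was the largest of the 10 markers after that of TRIML2 (2.95).

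The DENND10 transcript has 81.5% of its 31-base words also elsewhere in the genome, which bears on its counts. The near copy DENND10P1 on the X chromosome has 1 exon against 9, and 1070 of 1074 aligned bases were the same (99.6%). The transcript has 2441 bases, so the aligned part does not account for all shared words. Where the others lie was not recorded. A stretch of 80 bases in exon 2 of DENND10 (chr10:119108051-119108130) and in DENND10P1 (chrX:130495297-130495376, GRCh38, both plus strand) is printed to show how alike the copies are, and differs in the last base, in capitals.
DENND10: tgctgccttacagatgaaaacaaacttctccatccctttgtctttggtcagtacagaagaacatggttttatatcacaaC
DENND10P1: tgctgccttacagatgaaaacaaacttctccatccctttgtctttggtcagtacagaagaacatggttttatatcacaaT
DENND10P1 had 17 reads over all 37 CTCs and at most a value of 2.29, while DENND10 reached 102. Reads that fit both would be dropped as not unique, so the values of DENND10 are uncertain in size. The share of words found elsewhere was 8.69% for TRIML2, 3.06% for JPT2 and 2.61% for ODR4, and under 0.1% for the other 6 markers. JPT2 and DDAH1 share 3.13% and 8.35% of their exon bases with overlapping genes on the same strand. AHNAK2 shares 2.76% with PLD4 on the opposite strand, and since counting ignored strand, reads there cannot be told apart.

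In RPKM (reads per kilobase of exon, scaled to total reads), the mean of the mouse means was highest for TRIML2 (27.8 ± 51.2, SD, n = 5 mice), then JPT2 (9.18 ± 10.9), ITPRID2 (8.64 ± 4.51), NIBAN2 (7.07 ± 3.86), DDAH1 (7.06 ± 9.41), ODR4 (6.23 ± 2.99), ERBIN (4.43 ± 3.50), DENND10 (3.45 ± 1.54), AHNAK2 (2.83 ± 0.689) and AFDN (1.39 ± 0.445). Neighbors in this order differed by less than the larger SD of the pair for every step but the last, where AHNAK2 was above AFDN in 5 of 5 mice. ODR4 was also above ERBIN in 5 of 5 mice, by less than the larger SD. The median over CTCs, which single cells move less, was highest for ITPRID2 (5.19) and lowest for AFDN (0.677). Of the other candidates of the study, the caveola protein CAVIN1 had a median of 93.0 and the calcium-binding S100A16 one of 846 on the same scale, and each was detected in 36 of 37 CTCs.

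The CTCs differed in how many of the 10 markers they held. The median CTC had 9 (range 3 to 10), and 10 CTCs had all 10 (27%, exact 95% interval 13.8 to 44.1). Of these 10 CTCs, 8 were c libraries of mouse 5546, and the others were 5545-1 and 5549-2. Cultured cells held 8 to 10. At a value of at least 8 the median CTC had 6 markers (range 1 to 10) and 2 CTCs had all of them, against a median of 8 in culture. The median value of 1 read was 0.587 in CTCs and 1.49 in cultured cells. The level of 8 thus took fewer reads in culture than in most CTCs, and the medians are not directly comparable. No CTC lacked all markers at either level.

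Few markers were found in 6 CTCs: 5545-6 had 3, 5546-s5, 5546-s7 and 5546-s9 had 4, and 5546-s8 and 5549-6 had 5. CTC 5545-6, with the fewest genes of all (2313), held AHNAK2 at 32.9, NIBAN2 at 32.9 and JPT2 at 106. All 6 expressed VIM (2893 to 16705) and KRT18 (168 to 2657), and KRT18 ran from 66.9 to 2439 in the other 31 CTCs. Of 12 leukocyte genes listed 9 were in the table, and of 8 erythroid genes 6. The summed value of the 9 leukocyte genes had a median of 224 in these 6 CTCs (0 to 728) and of 25.6 in the other 31 (0 to 781), and that of the 6 erythroid genes a median of 3701 (0.587 to 15571) against 813 (0 to 5120). PTPRC was found in 4 of the 6 CTCs, reaching 205 in 5546-s9, and in 7 of the other 31, where it reached 5.23. The 8 s libraries of mouse 5546, some of them among these 6 CTCs, had medians of 233 for leukocyte and 2565 for erythroid genes. The 9 c libraries had 66.9 and 1794. The highest leukocyte sum, 781, was in 5546-s4, which held 7 markers, and 5545-6 had sums of 0 and 0.587. A trait of CTCs with few markers therefore cannot be told from one of the s libraries here. In cultured cells the erythroid sum was 0, the leukocyte sum 0 to 7.96 and PTPRC 0. Whether RNA of mouse blood cells was counted under these human genes was not tested. Whether RNA of blood cells has a part in the low number of markers was not tested either.

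CTCs with more genes detected also held more of the markers. Spearman's ρ between the number of markers and the number of genes was 0.753 over the 37 CTCs (Pearson's r 0.782) and 0.660 when 469614 reads were drawn from every cell to equal the shallowest CTC (thinning). Within mice it was 0.899 in the 17 CTCs of mouse 5546 and 0.753 in the 10 of mouse 5545. After thinning it was 0.886 in mouse 5546 (Pearson's r 0.865) and 0.349 in mouse 5545 (r 0.847). Within the letters of mouse 5546 it was 0.411 over the 9 c libraries, which nearly all had 10 markers, and 0.700 over the 8 s libraries. These are descriptions over cells that share mice, and both counts rose with the reads of a cell (ρ 0.455 for markers and 0.438 for genes). The c libraries held 9 or 10 markers and 7782 to 12299 genes, and the s libraries 4 to 9 markers. Only 1 of the 10 markers, ITPRID2, was found in all 8 s libraries.

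**Figure D2:**
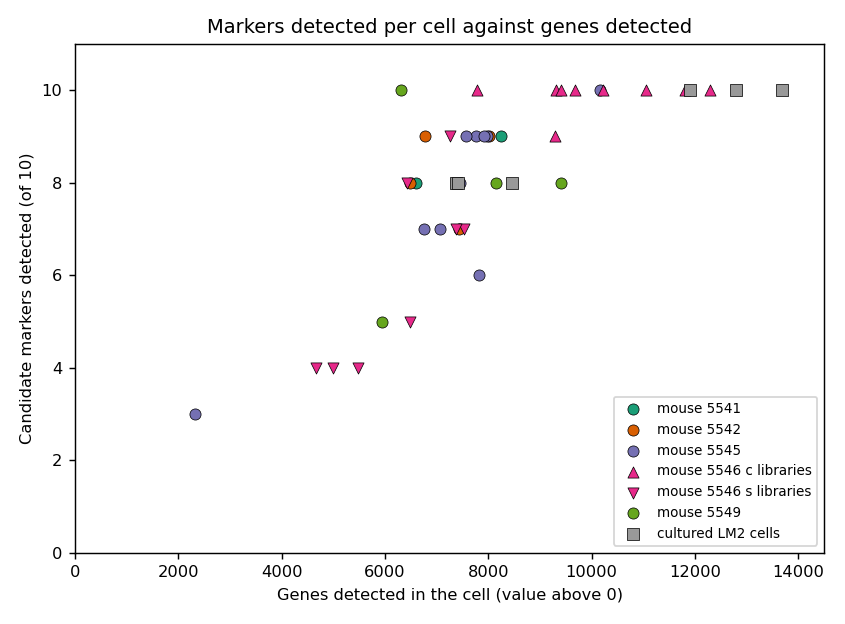
Number of the 10 markers detected (vertical axis) against the number of genes detected (horizontal axis) in each cell, colored by mouse, with c and s libraries as upward and downward triangles and cultured cells as gray squares. The 5 cells with the fewest genes (2313 to 5943) held 3 to 5 markers each.

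Every pair of markers covered at least 31 of the 37 CTCs at a value above 0. Of the 45 pairs, 6 left no CTC without a value above 0 (13.3%). These were AHNAK2 with ITPRID2, TRIML2 with NIBAN2, ITPRID2 with NIBAN2, ITPRID2 with JPT2, ERBIN with NIBAN2, and NIBAN2 with JPT2. ITPRID2 or NIBAN2, the markers with the highest shares over all CTCs, took part in all 6. Among all pairs of the 7019 genes with a CTC mean of at least 8, 19.0% did the same, a share above that of the markers. The 45 pairs left between 0 and 6 CTCs uncovered, with a median of 2. The pairs ODR4 with TRIML2, AFDN with DDAH1 and JPT2 with DDAH1 left the most. After thinning, 4 pairs left no CTC uncovered.

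The complement of ITPRID2 and NIBAN2 rests on few cells. ITPRID2 was missing in 5541-1 and 5545-6, NIBAN2 in 5546-s6 and 5549-6, and the remaining 33 CTCs held both. TRIML2 was missing in 10 CTCs, all of which held NIBAN2. Both members of a pair were found together in 17 to 33 CTCs (median 25), and in 39 of 45 pairs this was more than the product of their shares would give. The same held for 71.0% of all pairs of the 7019 expressed genes, among which genes found in every CTC cannot exceed the product, so nothing particular to the markers is read from it. The values of the members followed each other weakly, with ρ between -0.13 (TRIML2 and DDAH1) and 0.48 (AHNAK2 and DENND10) and a median of 0.17 over the 37 CTCs.

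When a value of at least 8 was required, no pair covered every CTC. AHNAK2 with ERBIN and ITPRID2 with ERBIN left the fewest, 2 of 37 each (94.6% covered, exact 95% interval 81.8 to 99.3). CTC 5546-s1 was missed by both pairs, 5546-s8 by the former and 5545-6 by the latter. Of all pairs of expressed genes, 26.0% left at most 2 CTCs, against 2 of the 45 pairs of markers. The 45 pairs left 2 to 13 CTCs, with a median of 6, and ODR4 with JPT2 left the most. At this level 35 pairs covered all 6 cultured cells, and the other pairs covered at least 4 of them.

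**Figure D3:**
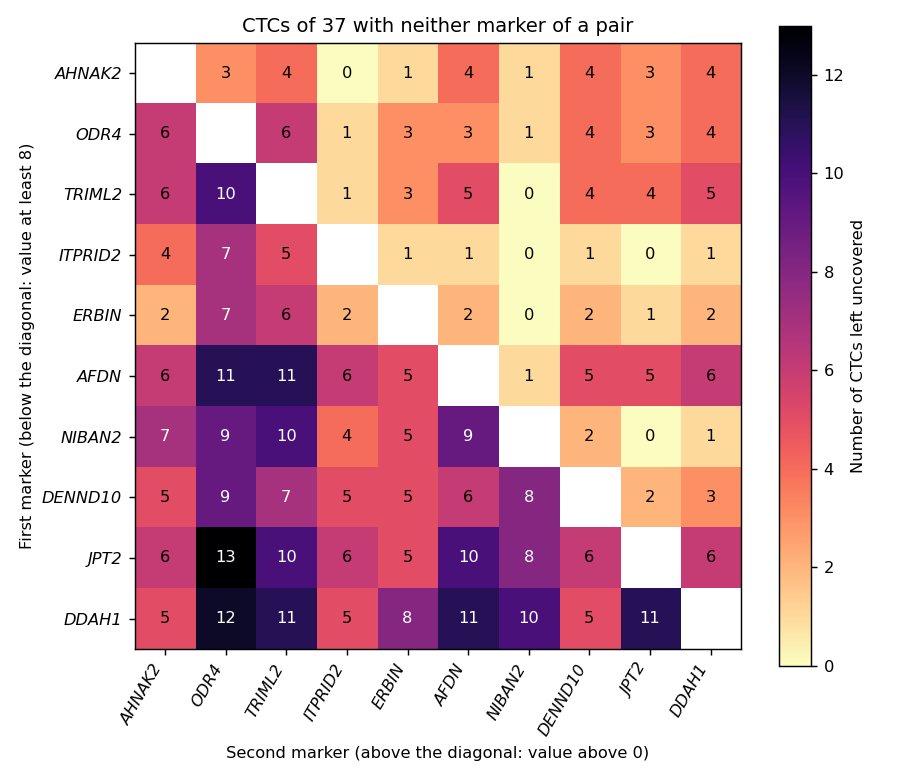
Number of the 37 CTCs in which neither marker of a pair was found, at a value above 0 above the diagonal and at a value of at least 8 below it, with darker squares for more CTCs. The 6 squares at 0 all lie in the rows or columns of ITPRID2 or NIBAN2, and the lowest number below the diagonal is 2.

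Larger combinations closed the gaps at different speeds. At a value above 0, 46 of the 120 sets of 3 markers and 136 of the 210 sets of 4 left no CTC uncovered, and every set of 8 did. At a value of at least 8, only 2 sets of 3 did so, AHNAK2 with ERBIN and AFDN, and ITPRID2 with ERBIN and NIBAN2. ERBIN is part of both sets. For sets of 5 at this level the count was 70 of 252, and for sets of 9 it was 9 of 10. The median set of 3 covered 36 CTCs at a value above 0 and 33 at a value of at least 8. No share was computed for sets of 3 or more among all expressed genes. Nothing particular to the markers is therefore read from these counts or from the sets named below.

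**Figure D4:**
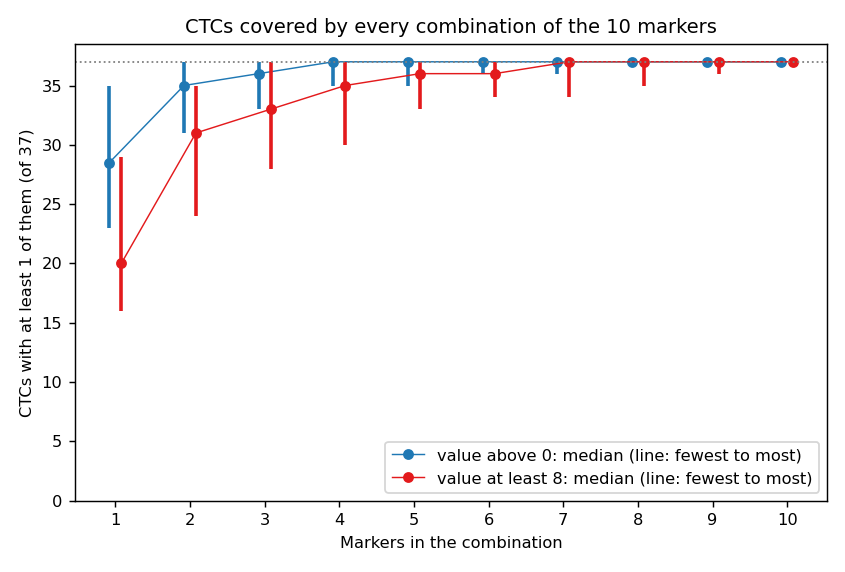
CTCs of 37 with at least 1 marker of a combination (vertical axis) for all combinations of 1 to 10 markers (horizontal axis). Points are medians and bars run from the worst to the best combination, in blue for a value above 0 and in red for at least 8. The median reaches 37 with 4 markers in blue and with 7 in red.

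AHNAK2, ODR4 and TRIML2 together were found in 35 of 37 CTCs (94.6%, exact 95% interval 81.8 to 99.3), and in 34 at a value of at least 8. All 3 were present in 20 CTCs at a value above 0 and in 7 at the higher level. The uncovered CTCs were 5546-s7 and 5546-s8, which held the highest values of DDAH1, and at the higher level also 5546-s9. All 3 are s libraries, and without the 8 s libraries this set covered 29 of 29 CTCs. With CAVIN1 added it covered 37 of 37 at both levels. CAVIN1 alone missed 1 CTC, 5549-6, which held TRIML2 at 1415.

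The published markers EPCAM, ERBB2 (the gene of HER2) and EGFR covered 34 CTCs at a value above 0 and 29 at a value of at least 8. Added to these, NIBAN2 alone raised the number to 37 at a value above 0, while TRIML2 and DDAH1 left it at 34. At the higher level ITPRID2 and ERBIN added most, to 35 CTCs each, and TRIML2 and NIBAN2 least, to 31. The published markers with AHNAK2, ODR4 and TRIML2 covered 37 and 35 CTCs at the 2 levels. The 3 CTCs missed by the published markers were 5545-11, 5545-6 and 5546-s9, and each of them held AHNAK2 or ODR4.

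The last question was whether the markers differed between CTCs and the culture. A rule of size was used, which a gene met when all 5 mouse means lay 4-fold or more above the culture mean, or all below it, after adding 1 to each, and the larger mean reached 8. None of the 10 markers met it in either direction. Of 9164 genes considered, 0.0436% were higher (4 genes) and 5.31% lower (487 genes) in CTCs by this rule. With 1 culture no p-value can be given for it. DDAH1 was 7.40-fold lower in CTCs by the mean of the mouse means (22.7 against 174) and lower in all 5 mice, with log2 ratios from -1.41 in mouse 5546 to -7.03 in mouse 5542. Without the s libraries, or without mouse 5546, DDAH1 met the rule as lower.

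Most genes were lower in CTCs on the deposited scale, with a median log2 ratio of -1.20 over the 9164 genes considered, and the median was -0.45 over 8777 genes when the reads were scaled to their total (RPM). Directions are therefore given as log2 ratios minus the median. On that scale TRIML2 (4.08), AFDN (1.76), ITPRID2 (1.49), NIBAN2 (1.39) and AHNAK2 (1.08) were higher than the median gene and DDAH1 (-1.68), DENND10 (-0.67) and ERBIN (-0.28) lower, and these signs were the same under each of the 18 alternatives computed. ODR4 (0.11) and JPT2 (0.05) changed sign among the alternatives. The study chose its candidates partly by level in these CTCs, while the genes considered could enter by the culture mean alone. A place above the median gene is thus favored by the selection and is no independent evidence of a difference. The value for TRIML2 rests on 5549-6, and without the highest CTC of each gene it was 1.67.

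**Figure D5:**
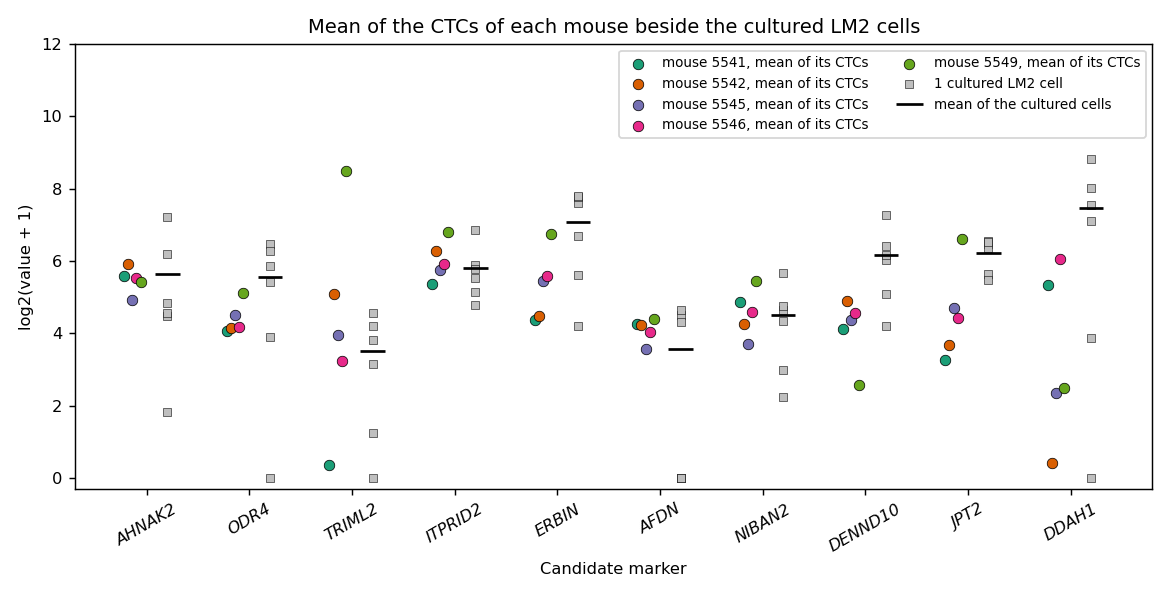
Mean value of each marker in the CTCs of each mouse (colored circles) beside each cultured LM2 cell (gray squares) and the mean of the cultured cells (black bar), on a log2(value + 1) axis. For ODR4, ERBIN, DENND10 and DDAH1 all 5 circles lie below the bar, and for TRIML2 they spread from a value of 0.281 to 355.

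As a count test, recovered reads were summed per mouse and compared with the summed culture by edgeR's quasi-likelihood test, which takes the spread of the culture to equal that of the mice. It called 0 of 13813 genes (0% in each direction) at an adjusted p under 0.05 and 241 at an unadjusted p under 0.05. Each of the 10 markers had an adjusted p of 1 in edgeR after Benjamini-Hochberg adjustment. The log2 fold changes in edgeR ran from -1.77 (SE 1.60) for DDAH1 to 3.40 (SE 2.42) for TRIML2, against a median of 0.31 over all genes tested. DESeq2 called 14 genes of 11740 higher and 0 lower, and edgeR without the filter on low counts 20 higher and 7 lower of 25739, none of them among the 10 markers. The SEs of the 10 markers ran from 1.01 to 2.42, so differences of this size were not detectable here.

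Partners of the markers, as listed from known biology with earlier results of these data known, were measured beside them. Of 44 partners in the table, 1 met the rule of size, the junction protein PKP4, which binds ERBIN and was lower in CTCs (mean of mouse means 7.11, culture mean 53.1). This is 1 of 44 beside the 5.31% of all genes that were lower by the rule. For AHNAK2, its relative AHNAK (median value 97.1) and the annexin complex of S100A10 (2331) and ANXA2 (11269) were abundant, and AHNAK was found in 36 of 37 CTCs and the other two in all 37. ODR4's partner UFSP2 was found in 26 CTCs and the ligase UFL1 in 21. For AFDN, NECTIN2 was found in 33 CTCs and NECTIN1 in 19. The endosomal partners of DENND10 ranged from CCDC22 in 10 CTCs to VPS29 in 36. Of the nitric oxide synthases related to DDAH1, NOS1 was found in 2 CTCs, NOS2 in 1 and NOS3 in 3, while DDAH2 was found in 30.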

How the data were processed

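Single cells were sequenced with SMARTseq2. The authors aligned the reads to GRCh38 with STAR 2.7.10a and the GENCODE 38 annotation, kept uniquely mapped reads, counted them per gene without regard to strand, and deposited the signal of each gene as counts divided by DESeq2 1.42.1 size factors, with 1 column per cell. Dividing each column by its smallest step gave whole reads for 100% of values (tolerance 0.001), and 0 pairs of libraries were identical. Groups followed the labels. The mouse was read from the prefix of the sample title. The labels name no batches that differ between libraries, so no batch could be compared. Names, coordinates and exon lengths came from GENCODE 44, which matched 25684 of 25739 gene identifiers, and sequences from GRCh38.

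The members and lists were chosen with earlier results of these data known. The genes named are the 10 markers, the study's other candidates and published markers, listed partners, and for AHNAK2, ODR4 and TRIML2 the 3 genes most like each. A marker was called detected above 0, and 8 was the second level. Intervals are exact 95% Clopper-Pearson intervals. Nothing in the labels says that the 6 cultured cells came from separate cultures, so they were taken as 1 sample and the rule of size has no p-value. Recovered reads summed per mouse were tested with edgeR 4.0.16 (quasi-likelihood, TMM, Benjamini-Hochberg) and, as an alternative, DESeq2 1.42.0 (R 4.3.3), and p-values measure the spread between mice. Other steps used Python 3.11.15, numpy 2.4.6, pandas 2.3.3, scipy 1.17.1, matplotlib 3.10.9 and biopython 1.88, and the scripts were tested on simulated data. Alternatives were other detection levels, thinning, pseudocounts, medians over cells, leaving out mice, cells or libraries, and other normalizations. The ratios in RPM, without the s libraries and without 5545-6 were chosen after seeing the data. The 4 CTC libraries that the submitters excluded were not analysed here.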

Additional observations from a re-analysis of the deposited data

Results flagged for a closer look

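The groups examined were of 4 to 10 cells or of the means of the 5 mice. In 5 of 82 such groups, 1 value lay far from the others by Dixon's criterion. For normally distributed values, chance alone gives this in about 1 of 20 groups. Many values here were 0, so that rate need not hold. In the s libraries of mouse 5546, ODR4 was highest in 1 library at 5.28 on the log2(value + 1) scale (n = 8). In the 10 CTCs of mouse 5545, ITPRID2 was lowest at 0, in CTC 5545-6. In the c libraries of mouse 5546, DENND10 was lowest at 0.86 in 5546-c8 (n = 9). In mouse 5542, DDAH1 was highest at 1.24 in the only CTC of 4 with any DDAH1 read. In the c libraries of mouse 5546, 1 library held 9 of the 10 markers and the other 8 held all 10.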

How the results depend on the processing

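Of the values that answer a comparison, 77 kept within their limits under the alternatives and 21 moved. The signs of single log2 ratios are given further on. The median number of markers per CTC was 6 at a value of at least 8, 7 at 10 or more reads and 8 after thinning, and leaving out each mouse gave 8 to 9 (8 without mouse 5546). All 10 markers were found in 27% of CTCs, in 5.41% at a value of at least 8 and at 10 or more reads, and in 10.0% to 33.3% when each mouse was left out, the lowest without mouse 5546. The share with AHNAK2, ODR4 or TRIML2 was 100% without the s libraries, and 92.6% to 100% over the mice. The 6 pairs that left no CTC uncovered were 0 at 10 or more reads, 10 without the s libraries, 12 without CTC 5545-6 and 6 to 12 without each mouse. The fewest CTCs left by any pair at a value of at least 8 (5.41%) became 18.9% at a value of at least 16, 0% without the s libraries and 0% to 6.06% over the mice. For the rule of size, 1 marker was lower (DDAH1) with medians over cells and without the s libraries, 2 (DENND10 and DDAH1) at 2-fold, and 0 to 1 when a mouse or cultured cell was left out, with DDAH1 lower without mouse 5546. Over all genes the rule called 487 lower, but 144 with a pseudocount of 8, 137 in RPM, 917 without the highest CTC of each gene, 1357 with medians over cells, 2298 at 2-fold and 757 without mouse 5545. It called 4 higher, and 1 to 10 over the alternatives. Without mouse 5545, edgeR called 1 gene. Before subtracting the median, the log2 ratio changed sign in 4 of 18 alternatives for AHNAK2 and NIBAN2, 2 for ITPRID2 and 1 for TRIML2. After the median was subtracted, only the log2 ratios of ODR4 and JPT2 changed sign. No paired analysis was possible because 5 mice were set against 1 culture, which leaves no pairs. The limits are few CTCs per mouse, 1 culture, reads without molecular identifiers and no batches named to compare, and the values are RNA and not protein. At 4 to 25 reads per value of 8, a marker near the level could be missed.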

Other observations

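The genes whose values followed AHNAK2, ODR4 and TRIML2 most closely were sought among the 6870 genes with a CTC mean of at least 8 that were detected in at least 30% of CTCs. For AHNAK2 these were PNMA1 (Spearman's ρ 0.66), PLD3 (0.64) and CMBL (0.63) over the 37 CTCs. For ODR4 they were the receptor BMPR2 (0.67), the transcription factor NFIA (0.64) and the phosphatase subunit PPP1R12A (0.62). For TRIML2 they were the mitochondrial helicase SUPV3L1 (0.64), RRP1 (0.62) and the endonuclease APEX2 (0.62). The lists of 3 genes share no gene, but no such overlap was computed for lists of other genes, so nothing is read from it. These are the highest of many correlations over cells that share mice and libraries, and are given as a description. The study's other candidates STAC and ATP23 were detected in 18 and 17 of the 37 CTCs, fewer than any of the 10 markers.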
